A study of Rattus norvegicus with 6 samples.

Results

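Expression of the enzymes of the tricarboxylic acid (TCA) cycle, of pyruvate entry into it and of branched-chain amino acid (BCAA) breakdown was examined in rat adipose-derived stem cells before and after adipogenic induction. The set was listed by function and holds 39 genes, 19 for pyruvate entry and the cycle and 20 for BCAA breakdown. A gene was taken as measured where an array feature was annotated with its symbol alone. This found 38 of the 39 (18 and 20), among 18166 genes in all, and each of the 38 had a single feature. Fumarate hydratase (Fh) was not analysed here.

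The cells, called ADSCs, are stromal precursors that can become fat cells. They came from the inguinal fat of female Wistar rats 2 weeks old, and RNA from 6 samples was measured on one-colour Affymetrix arrays. The 3 control samples grew in α-MEM with 10% fetal bovine serum. The 3 induced samples were kept for 7 days in α-MEM with 20% serum, 0.5 mM IBMX (a phosphodiesterase inhibitor), 1 µM dexamethasone (a glucocorticoid) and 5 µg/ml insulin. Serum and inducers differed together, so their parts cannot be told apart. The culture time of control cells is not stated in the labels. The labels call the samples biological replicates without naming separate animals, so the p-values measure only the spread between these samples, which may be technical. Values are log2 RMA signals (background-corrected, quantile-normalized probe summaries), listed in the order of replicates 1 to 3, and differences are induced minus control on the log2 scale. Levels of different genes are not set against each other, since features differ in brightness.

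Pyruvate enters the mitochondrial cycle either as acetyl-CoA, made by the pyruvate dehydrogenase complex, or as oxaloacetate, made by pyruvate carboxylase. The cycle oxidizes acetyl-CoA, and in fat cells part of its citrate leaves the mitochondrion to supply carbon for fatty acid synthesis. Leucine, isoleucine and valine are first transaminated, then oxidatively decarboxylated by a complex built like pyruvate dehydrogenase, and then taken apart along separate branches that end in acetyl-CoA, acetoacetate or succinyl-CoA. Adipocytes are known for active BCAA breakdown.

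The samples stood apart in how adipocyte-like they were. All 10 of 10 mature adipocyte markers (among them Adipoq, Plin1 and Cidec) had positive estimates, and their mean level was 8.51, 7.09 and 6.92 in control and 10.76, 10.68 and 11.93 in induced samples. Of 8 measured stromal markers of 10 listed, all had negative estimates, with means of 9.93, 10.01 and 10.19 against 9.41, 9.45 and 8.74. Induced replicate 3 thus had the highest adipocyte and the lowest stromal mean, and control replicate 1 had the highest adipocyte mean of the control arrays. Macrophage and leukocyte markers (12 of 12 measured) averaged 6.85, 7.25 and 5.60 against 7.94, 7.41 and 5.94, low on replicate 3 of both groups. Endothelial (6 of 8), mural (6 of 6), skeletal muscle (7 of 8) and epithelial (5 of 6) lists shifted by -0.04, -0.06, -0.21 and -0.04 in their means. Single estimates ran from -0.74 to 0.61, -0.58 to 0.80, -0.65 to 0.01 and -0.14 to 0.02, so means near 0 can hide opposite shifts. RMA gives no detection call, so no marker can be said to be at 0. In such bulk samples, more cells of a type and more RNA per cell cannot be told apart.

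Nearly all of the genes stood higher in induced samples, yet none passed the test over all genes. Positive estimates were found for 36 of 38, with a median of 1.07, where the median over all genes was -0.01. In 35 of 38 all 3 induced arrays lay above all 3 control arrays, against 12.0% of all genes and 16.9% of the 9083 genes of highest mean signal, which include all 38. An estimate of at least 1, which is a doubling, was seen for 21 of 38 against 2.81% of all genes. In limma's test with Benjamini-Hochberg adjustment over all genes (adjusted p under 0.05), 0 of 38 were called in either direction, against 0.749% of all genes, while 30 of 38 had an unadjusted p under 0.05, as did 3205 of the 18166 genes. Genes of one pathway are read on the same 6 arrays, so these counts are not independent observations.

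The distance between induced replicate 3 and its fellows enters the error of every gene. Induced replicate 3 was the highest of the 6 arrays for 36 of 38 genes and the lowest for the other 2, Idh2 and Bcat1. Of all 18166 genes it was the highest for 4732 and the lowest for 5257. Its distance from the mean of induced replicates 1 and 2 had a median of 1.14 and ran from -1.03 for Bcat1 to 2.54 for Acadsb. When it was left out, the median estimate was 0.67, and 14 of 38 genes rose by limma's test against 2.00% of all genes called higher in that fit (3.24% among the 9083 brightest). That fit keeps only 2 induced arrays, which correlated at r = 0.994 across genes, against 0.982 to 0.987 between control arrays. Its adjusted p-values, here and below, rest in part on that closer spread. The same fit called 3 of 12 macrophage and leukocyte markers higher and 0 lower. With array weights, which count induced replicate 3 less, 13 of 38 rose, against 2.61% of all genes. Of the 14, 6 belonged to the cycle and pyruvate entry (Pc, Pdhb, Dlat, Pdhx, Mdh1, Dld) and 8 to BCAA breakdown (Bckdha, Bckdhb, Dbt, Acad8, Mccc2, Auh, Echs1, Pcca). The part that adipocyte markers, which are also highest on that array, have in its levels was not tested.

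**Figure D1:**
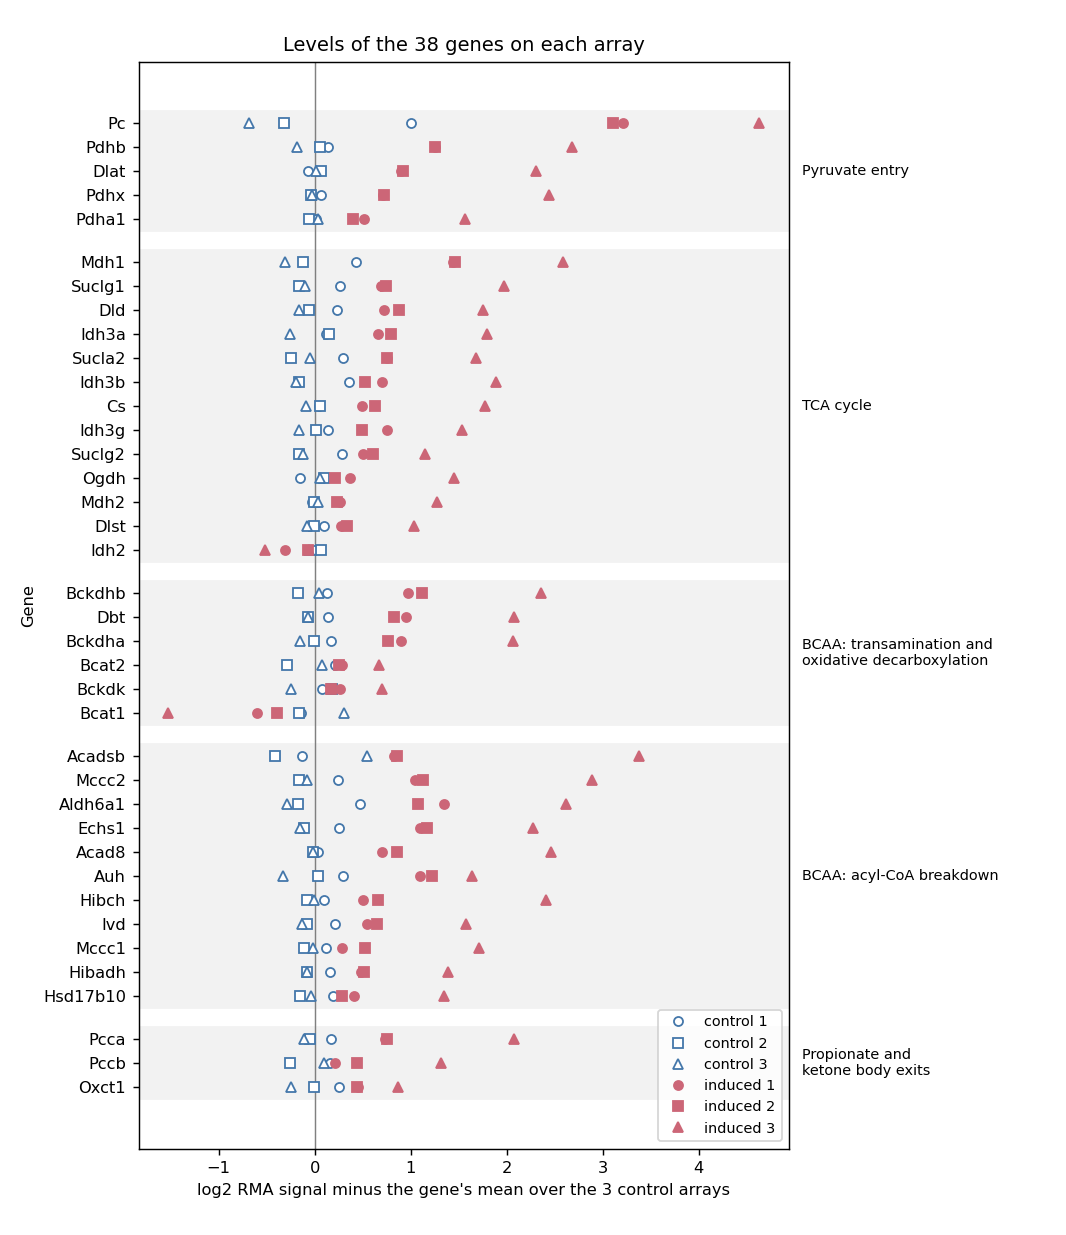
Log2 RMA signal of each of the 38 genes minus that gene's mean over the 3 control arrays (x axis, log2 units), by role; open blue symbols are control and filled red symbols induced arrays, with circles, squares and triangles for replicates 1, 2 and 3. Induced replicate 3 is the farthest right for 36 genes and the farthest left for Idh2 and Bcat1, and 35 genes have all red points right of all blue ones.

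Pyruvate entry held the largest difference of the set. Pc encodes pyruvate carboxylase, which makes oxaloacetate from pyruvate. It read 8.35, 7.03 and 6.65 in control and 10.56, 10.45 and 11.97 in induced samples. Every induced array was at least 2 units above every control array, and control replicate 1 was the highest of its group. The estimate was 3.65 (SE 0.56), a 12.6-fold difference, and limma's adjusted p was 0.0507, just outside the threshold. Without induced replicate 3 Pc rose by 3.16 (SE 0.46, limma adjusted p = 0.0211), and without control replicate 1 it also passed, at an adjusted p of 0.0463.

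The 4 genes of the pyruvate dehydrogenase complex proper, which turns pyruvate into acetyl-CoA, were all higher on every induced array. Pdhb, the beta subunit of the E1 enzyme, read 8.71, 8.63 and 8.39 against 9.83, 9.83 and 11.26, an estimate of 1.73 (SE 0.39, limma adjusted p = 0.106). Dlat, the E2 acetyltransferase core, read 8.43, 8.57 and 8.52 against 9.40, 9.43 and 10.81 (estimate 1.37, SE 0.38). Pdhx, which anchors E3 to the core, read 7.46, 7.35 and 7.36 against 8.10, 8.11 and 9.83 (estimate 1.29, SE 0.46). In each of these the control arrays and induced replicates 1 and 2 were tight, and induced replicate 3 stood more than 1 unit above the rest. Pdha1, the E1 alpha subunit, had the smallest estimate of the group, 0.82 (SE 0.30), with readings of 10.67, 10.60 and 10.69 against 11.17, 11.05 and 12.22. Without induced replicate 3 Pdhb rose by 1.25 (adjusted p = 0.00844), Dlat by 0.91 (0.0129) and Pdhx by 0.72 (0.0252) in limma's test, while Pdha1 stood at 0.45 (0.0981).

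Within the cycle, 12 of 13 genes were higher on every induced array, against 12.0% of all genes, with a median estimate of 0.97. Mdh1, the cytosolic malate dehydrogenase, which works in the malate shuttle rather than in the cycle itself, led with 10.72, 10.17 and 9.98 against 11.72, 11.75 and 12.88, an estimate of 1.83 (SE 0.35, limma adjusted p = 0.084). Its mitochondrial counterpart Mdh2, the enzyme of the cycle, read 10.69, 10.71 and 10.75 against 10.99, 10.95 and 12.00, an estimate of 0.59 (SE 0.28). The 2 genes differed in size of shift: Mdh1 minus Mdh2 was 1.24 higher in induced than in control samples, 1.20 without induced replicate 3, with no overlap between the groups. Without that array Mdh1 rose by 1.45 (adjusted p = 0.0239), and Mdh2 stood at 0.25 (adjusted p = 0.299).

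Isocitrate dehydrogenases pointed apart. The NAD-linked enzyme of the cycle has its subunits encoded by Idh3a, Idh3b and Idh3g. Idh3a read 10.01, 10.04 and 9.63 against 10.55, 10.69 and 11.69, an estimate of 1.08 (SE 0.31, limma adjusted p = 0.161), and Idh3b read 10.45, 9.94 and 9.91 against 10.80, 10.62 and 11.99, an estimate of 1.04 (SE 0.37). Idh3g stood at 0.93 (SE 0.27), so the regulatory and catalytic subunits lay within 1 SE of each other. Idh2, the NADP-linked mitochondrial enzyme, read 10.40, 10.48 and 10.35 against 10.11, 10.34 and 9.89, an estimate of -0.30 (SE 0.14, limma adjusted p = 0.332). Its groups did not overlap, but induced replicate 2 came within 0.1 unit of the lowest control array. The cytosolic NADP-linked form Idh1, a neighbour named after its values were seen, stood at 0.55 (SE 0.18, limma adjusted p = 0.207). Every induced array of Idh1 lay above every control array, so the NADP-linked forms differed in sign too. The mean of the 3 Idh3 subunits minus Idh2 was 1.32 higher in induced samples and 0.84 higher without induced replicate 3. Every Idh3 subunit was higher and Idh2 lower on every induced array, so this difference had to separate the groups.

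The estimates of the other steps of the cycle ran from 0.55 to 1.13. Cs, citrate synthase, read 10.18, 10.19 and 10.05 against 10.64, 10.77 and 11.92 (estimate 0.97, SE 0.33). Dld, the E3 dehydrogenase that the pyruvate, oxoglutarate and branched-chain complexes share, read 9.99, 9.70 and 9.59 against 10.48, 10.64 and 11.51 (estimate 1.12, SE 0.28), and rose by 0.80 without induced replicate 3 (limma adjusted p = 0.0488). Both genes had every induced array above every control array. In succinyl-CoA ligase, the shared alpha subunit Suclg1 read 9.16, 8.73 and 8.80 against 9.59, 9.63 and 10.86 (estimate 1.13, SE 0.35), and the ADP-forming beta subunit Sucla2 read 9.71, 9.16 and 9.36 against 10.16, 10.16 and 11.09 (estimate 1.06, SE 0.29). The GDP-forming beta subunit Suclg2 stood at 0.75 (SE 0.21). The oxoglutarate dehydrogenase genes Ogdh (E1) and Dlst (E2) were among the smallest positive estimates of the cycle, at 0.68 (SE 0.32) and 0.55 (SE 0.21), with mean list levels of 9.75, 9.83 and 9.77 in control and 10.10, 10.06 and 11.02 in induced samples.

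In BCAA breakdown the transaminases of the first step differed in the sign of their estimates. Bcat1, the cytosolic transaminase, read 10.04, 10.02 and 10.49 in control and 9.58, 9.79 and 8.65 in induced samples, an estimate of -0.84 (SE 0.31, limma adjusted p = 0.239). All induced arrays lay below all control arrays, as they did for Idh2 and for 13.4% of all genes. Bcat2, the mitochondrial transaminase and the main form of fat tissue, read 8.31, 7.81 and 8.18 against 8.39, 8.35 and 8.77, an estimate of 0.40 (SE 0.18, limma adjusted p = 0.317), and the lowest induced array was within 0.1 unit of the highest control array. Bcat2 minus Bcat1 was 1.24 higher in induced samples and 0.77 higher without induced replicate 3. Its groups had to separate, since each gene alone separated them, in opposite directions.

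The branched-chain ketoacid dehydrogenase complex, which commits the carbon skeletons to oxidation, had larger estimates for all 3 of its own genes. Bckdhb, its E1 beta subunit, read 7.72, 7.41 and 7.63 against 8.55, 8.71 and 9.94, an estimate of 1.48 (SE 0.36, limma adjusted p = 0.12). Dbt, the E2 core, read 9.60, 9.39 and 9.39 against 10.41, 10.28 and 11.54 (estimate 1.28, SE 0.33), and Bckdha, the E1 alpha subunit, read 7.58, 7.40 and 7.26 against 8.31, 8.18 and 9.48 (estimate 1.24, SE 0.34). Each had clear space between the groups, and without induced replicate 3 they rose by 1.05, 0.89 and 0.83 (limma adjusted p = 0.0174, 0.0205 and 0.033). Bckdk, the kinase that phosphorylates and switches off the complex, read 9.87, 9.97 and 9.54 against 10.05, 9.97 and 10.49 and was the only one of the 38 whose groups overlapped (estimate 0.38, SE 0.19, limma adjusted p = 0.359). By complex, the mean difference was 1.30 for the pyruvate, 1.34 for the branched-chain and 0.61 for the oxoglutarate dehydrogenase genes, which share the same kind of architecture.

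**Figure D2:**
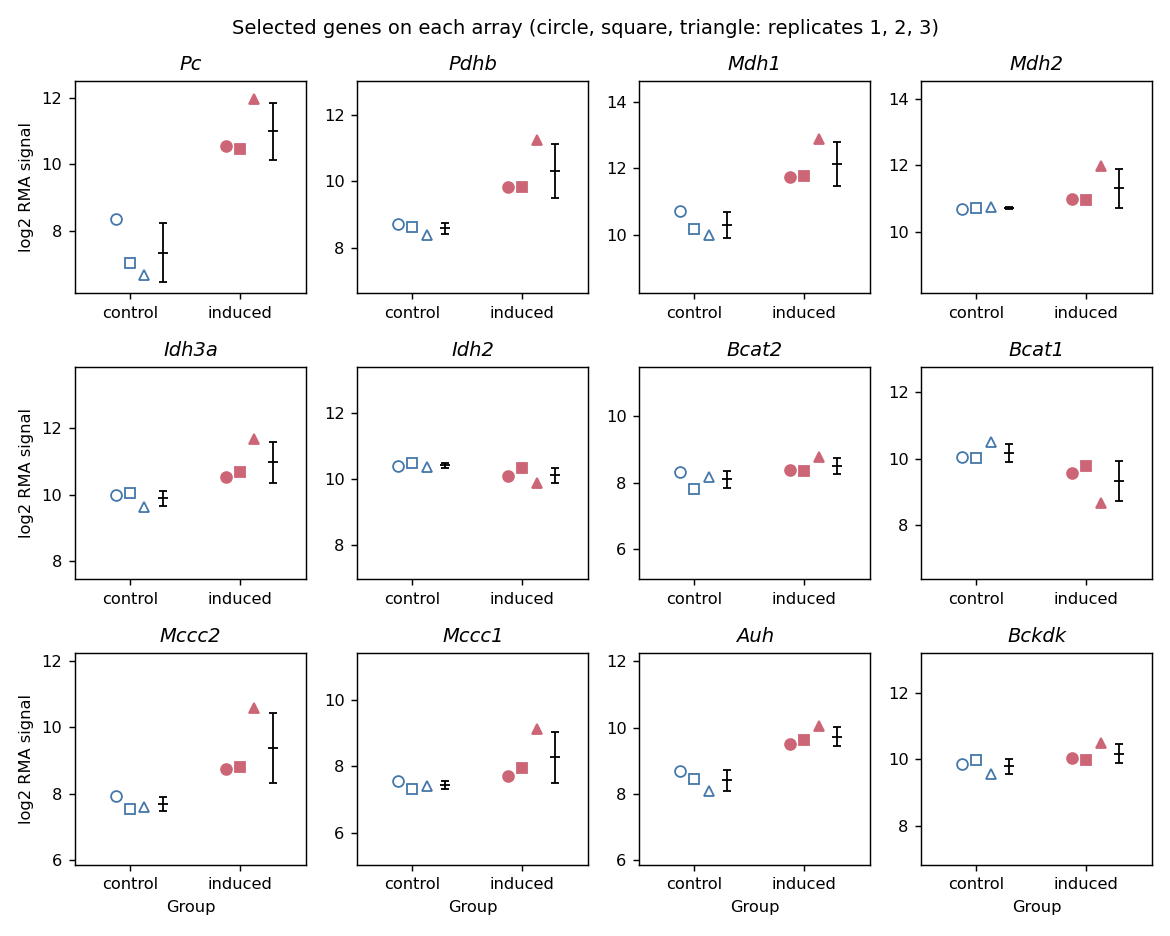
Log2 RMA signal (y axis) of 12 of the genes on each of the 3 control (open blue) and 3 induced (filled red) arrays; the short bar with whiskers is the group mean ± SD (n = 3), and every panel spans the same number of log2 units. Pc has the widest gap, Mdh1 shifts more than Mdh2, Idh2 and Bcat1 lie lower in induced samples, and Bckdk overlaps.

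The acyl-CoA steps were higher on every induced array for 11 of 11 genes, against 12.0% of all genes, with a median estimate of 1.32. Each amino acid has its own acyl-CoA dehydrogenase. Acadsb, for the isoleucine branch, read 7.97, 7.69 and 8.64 against 8.93, 8.96 and 11.48, an estimate of 1.69 (SE 0.70, limma adjusted p = 0.28). Acad8, for the valine branch, read 7.09, 7.03 and 7.04 against 7.75, 7.91 and 9.51 (estimate 1.34, SE 0.45), and Ivd, for the leucine branch, stood at 0.93 (SE 0.28). Acadsb had the widest spread of the set, since control replicate 3 came close to induced replicates 1 and 2 and induced replicate 3 stood far above them. Acad8 was tight apart from that last array and rose by 0.78 without it (limma adjusted p = 0.0228).

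Leucine then passes through methylcrotonyl-CoA carboxylase and methylglutaconyl-CoA hydratase. Auh, the hydratase, read 8.71, 8.45 and 8.09 against 9.51, 9.64 and 10.05, an estimate of 1.32 (SE 0.21, limma adjusted p = 0.0556), the second smallest adjusted p of the 38. Its induced arrays were close together, and without induced replicate 3 it rose by 1.16 (adjusted p = 0.0327). Of the carboxylase, the beta subunit Mccc2 read 7.93, 7.53 and 7.61 against 8.73, 8.81 and 10.58 (estimate 1.69, SE 0.49), and the biotin-bearing alpha subunit Mccc1 had an estimate of 0.84 (SE 0.36). Mccc2 minus Mccc1 was 0.85 higher in induced samples and 0.68 higher without induced replicate 3, and the groups did not overlap.

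Valine carbon runs on through Hibch, Hibadh and Aldh6a1, and isoleucine and valine share the hydratase Echs1. Aldh6a1, methylmalonate semialdehyde dehydrogenase, read 9.56, 8.92 and 8.80 against 10.44, 10.17 and 11.71, an estimate of 1.68 (SE 0.42, limma adjusted p = 0.127). Echs1, which also serves fatty acid oxidation, read 9.39, 9.03 and 8.99 against 10.23, 10.31 and 11.41, an estimate of 1.51 (SE 0.32, limma adjusted p = 0.0983). Hibch, a hydrolase, read 6.73, 6.54 and 6.62 against 7.13, 7.29 and 9.04 (estimate 1.19, SE 0.48). Control replicate 1 was the highest control array in all of these, as it was in 17 of the 20 BCAA genes and 11 of the 18 others. Over the whole array it was so for 6747 of 18166 genes. Hibadh stood at 0.80 (SE 0.26), and Hsd17b10, the dehydrogenase of the isoleucine branch, had the smallest estimate of the acyl-CoA steps, 0.68 (SE 0.29), with readings of 9.40, 9.06 and 9.17 against 9.62, 9.49 and 10.56. The branch medians were 1.12 for leucine (4 genes), 1.26 for valine (4 genes) and 1.18 for isoleucine (2 genes), and their differences are smaller than the standard errors of most single genes.

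The exits had estimates from 0.58 to 1.19. Propionyl-CoA from isoleucine and valine is carboxylated by an enzyme of alpha (Pcca) and beta (Pccb) subunits. Pcca read 8.75, 8.53 and 8.47 against 9.32, 9.33 and 10.66, an estimate of 1.19 (SE 0.36, limma adjusted p = 0.178), and rose by 0.74 without induced replicate 3 (adjusted p = 0.0382). Pccb stood at 0.66 (SE 0.30). Oxct1, which activates ketone bodies such as leucine-derived acetoacetate, read 9.97, 9.70 and 9.46 against 10.16, 10.15 and 10.57, an estimate of 0.58 (SE 0.18, limma adjusted p = 0.185). In Pccb and Oxct1 the groups were separate by less than 0.2 unit.

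**Figure D3:**
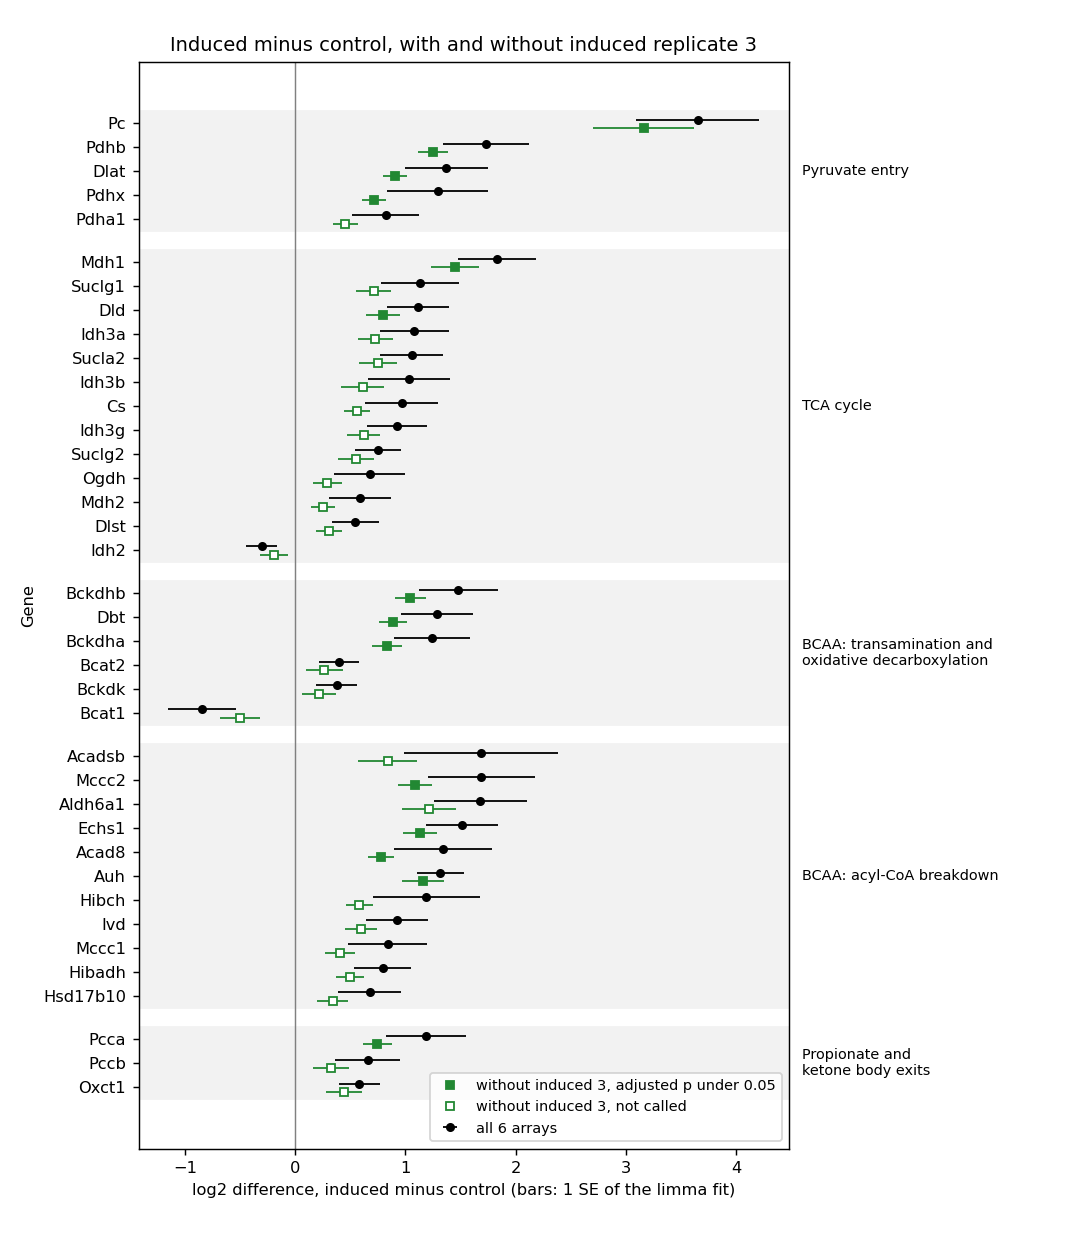
Log2 difference, induced minus control (x axis), of each of the 38 genes with its standard error from the limma fit, over all 6 arrays (black circles) and without induced replicate 3 (green squares, filled where limma's adjusted p was under 0.05). None of the 38 is called over all 6 arrays and 14 are called without that array, where 36 estimates are still positive and those of Idh2 and Bcat1 still negative.

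Set side by side, the cycle with pyruvate entry and BCAA breakdown shifted to a similar extent. The mean level of the 18 genes of the first group was 9.69, 9.47 and 9.38 in control and 10.29, 10.29 and 11.35 in induced samples. For the 20 BCAA genes it was 8.66, 8.39 and 8.46 against 9.13, 9.17 and 10.22. The differences of these means were 1.13 and 1.00 and the medians of the estimates 1.05 and 1.19, so mean and median order the groups differently. On each array the BCAA mean minus the other mean was -1.04, -1.08 and -0.93 in control and -1.16, -1.13 and -1.13 in induced samples, a difference of -0.13 with no overlap. This rested on Pc: without it the difference was 0.023 and the groups overlapped. No p is given for these means.

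The other mitochondrial lists compared here gave smaller median shifts. This does not hold for every mitochondrial gene. Among the neighbours named below, Slc25a10, Mcee, Acss3, Hadhb, Pdk1 and Pdk2 had estimates above the median of the 38 genes. Pck2 and Pdk3 had negative ones. Whatever their compartment, 11 of the 27 measured neighbours of the cycle and 8 of the 18 of BCAA breakdown had estimates of at least 1. For 70 respiratory chain and ATP synthase genes, taken by symbol, the median estimate was 0.65, with 45 of 70 higher on every induced array. For 70 mitochondrial ribosomal protein genes it was 0.35, with 20 of 70. Of all genes 12.0% were higher on every induced array, and 16.9% of the 9083 genes of highest mean signal. Of both lists 0 genes were called, against 0.749% of all genes. Per array, the mean of the 38 genes minus that of the respiratory genes was 0.24, 0.18 and 0.20 in control and 0.66, 0.58 and 0.74 in induced samples, 0.45 higher. Against the ribosomal genes it was 0.71 higher, and neither pair of groups overlapped. These lists differ in signal level too: the lowest value was 2.95 among the respiratory, 4.84 among the ribosomal and 6.54 among the 38 genes. Neither list was filtered by signal, and the respiratory list holds forms such as Cox7b2 and Cox8c. The succinate dehydrogenase genes, also of the respiratory chain, are not in that list. Given below, they had estimates from 0.84 to 1.06. Whether signal level bears on the size of the estimates was not tested.

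**Figure D4:**
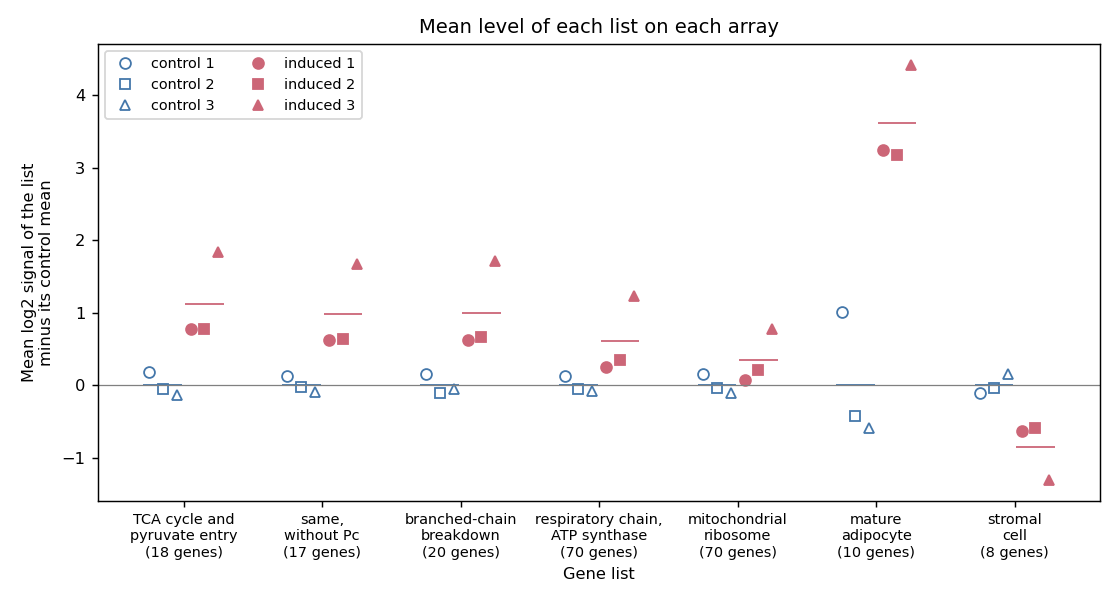
Mean log2 signal of each gene list on each array minus the mean of the 3 control arrays (y axis, log2 units), for the cycle and pyruvate entry with and without Pc, BCAA breakdown, other mitochondrial lists and marker lists; open blue symbols are control, filled red symbols induced arrays, and lines are group means. Induced replicate 3 is the farthest from control in every list shown, and the lists without Pc and of BCAA breakdown shift nearly alike.

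Neighbouring genes, from lists made by function, give the surroundings of these enzymes. Around the cycle and pyruvate, 2 of 27 measured genes rose and 0 fell in the test over all genes, and 20 had positive estimates. Of all genes 0.749% were called in either direction. Me1, the cytosolic malic enzyme that makes NADPH, read 8.83, 8.59 and 9.11 against 11.85, 11.80 and 12.81 and rose by 3.31 (SE 0.29, limma adjusted p = 0.0144). Slc25a10, the mitochondrial dicarboxylate carrier, read 9.57, 9.39 and 8.56 against 11.40, 11.16 and 12.15 and rose by 2.40 (SE 0.35, limma adjusted p = 0.0456). Acly, which splits citrate into acetyl-CoA in the cytosol, stood at 1.78 (adjusted p = 0.0762). These 3 act on malate or citrate outside or at the border of the mitochondrion, and all had every induced array above every control array. The largest negative estimates were those of Pck2, the mitochondrial phosphoenolpyruvate carboxykinase, at -0.96 (adjusted p = 0.212), and of the pyruvate dehydrogenase kinase Pdk3, at -0.77 (adjusted p = 0.273). The other pyruvate dehydrogenase kinases, named after their values were seen, had positive estimates: Pdk1 stood at 1.28 (SE 0.48, limma adjusted p = 0.248) and Pdk2 at 1.11 (SE 0.36, limma adjusted p = 0.197), both with every induced array above every control array, and Pdk4 at 0.53 (SE 0.62, limma adjusted p = 0.724) with overlap. The succinate dehydrogenase genes Sdha, Sdhb, Sdhc and Sdhd, chosen for mention after their values were seen because they complete the cycle, stood at 1.06, 0.86, 0.84 and 1.04, within the range of the other steps.

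Around BCAA breakdown 0 of 18 measured genes were called, against 0.749% of all genes, and 15 had positive estimates. On every induced array 11 of 18 were higher, against 12.0% of all genes. Acss3, a propionate-activating synthetase, read 8.34, 9.56 and 7.72 against 10.82, 10.85 and 11.60 (estimate 2.55, SE 0.47, limma adjusted p = 0.0775). Mcee, the epimerase that follows propionyl-CoA carboxylase, stood at 1.94 (SE 0.45, adjusted p = 0.109) and Hadhb of the trifunctional protein at 1.46 (SE 0.43, adjusted p = 0.17). Plasma membrane transporters of these amino acids differed in sign. Slc7a5, the light chain of the LAT1 transporter that brings in leucine, isoleucine and valine, read 10.48, 10.11 and 11.18 against 9.73, 9.68 and 9.08, an estimate of -1.09 (SE 0.31, limma adjusted p = 0.156) with no overlap, and its heavy chain Slc3a2 stood at -0.27 (adjusted p = 0.574) with overlapping groups. The carriers Slc43a1 and Slc43a2, named after their values were seen, stood at 1.11 (SE 0.32, limma adjusted p = 0.161), with no overlap, and at 0.19 (SE 0.55, limma adjusted p = 0.904), with overlap.

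Promoter sequence was looked at because the genes stood higher together on the arrays. RefSeq windows of GRCr8, from 250 bases before to 50 after a start site, were matched by symbol for 34 of the 38 genes (35 windows, Bcat1 having 2). Pc, Idh3a, Bckdha and Mccc2 were not among them. The member windows were richer in G and C than all 33469 windows (median 61.3% against 51.7%) and held a median of 19 CpG dinucleotides against 7. That background was not matched for signal, whereas all 38 genes lie among the 9083 of highest mean signal. Idh2, with a negative estimate, held 28 CpG dinucleotides, and the 2 windows of Bcat1 held 23 and 7. Motifs were searched on both strands. The NRF1 core GCGCATGCG, a site type known from genes of mitochondrial function, was in 1 member (Pccb) and in 1.52% of all windows. The estrogen-related receptor element TCAAGGTCA was in 0 members and 0.433% of windows, and 2 copies of AGGTCA spaced by 1 base, the type that PPARγ binds, in 0 members and 0.0538%. The single hexamer AGGTCA, a nuclear receptor core that is part of both of those, was in 6 members (Dlat, Echs1, Hibadh, Idh3g, Mdh1, Pdhb) of 34 and in 16.2% of windows.

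The 100 bases before the start site are printed for the 3 members whose match lies wholly within them and for Idh2 and Bcat1, the genes with negative estimates. Capitals mark the match and every other base is in lower case. All are read 5′ to 3′ on the minus strand, which is the coding strand of each gene, at chr8:110520187-110520286 for Pccb, chr8:59900819-59900918 for Dlat, chr1:204333507-204333606 for Echs1, chr1:143467249-143467348 for Idh2, and chr4:179744209-179744308 for the more CpG-rich of the 2 Bcat1 windows.
Pccb: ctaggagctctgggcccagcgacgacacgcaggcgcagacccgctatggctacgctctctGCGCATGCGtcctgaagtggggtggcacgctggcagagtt
Dlat: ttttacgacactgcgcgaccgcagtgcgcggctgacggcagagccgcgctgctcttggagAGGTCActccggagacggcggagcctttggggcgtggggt
Echs1: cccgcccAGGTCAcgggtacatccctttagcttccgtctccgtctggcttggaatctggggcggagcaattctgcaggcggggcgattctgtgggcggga
Idh2: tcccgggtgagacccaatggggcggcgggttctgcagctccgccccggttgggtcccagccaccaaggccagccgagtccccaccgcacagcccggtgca
Bcat1: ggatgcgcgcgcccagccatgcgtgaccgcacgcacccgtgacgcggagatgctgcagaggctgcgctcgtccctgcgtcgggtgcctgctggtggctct
Counted from the start site, the NRF1 match of Pccb spans -40 to -32, the hexamer of Dlat -40 to -35 and that of Echs1 -93 to -88. Idh2 and Bcat1 hold none of the searched letters in these windows. A match of letters shows no binding, and these arrays measured none.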

How the data were processed

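The deposited table holds log2 signals that the authors made with RMA (background correction, quantile normalization, probe summary), per the submitters' processing notes, and biotinylated cRNA was made from 6 µg of RNA, per the label protocol. No version of RMA is stated. The log2 scale was read from the values (array medians of 5.64 to 5.73). Quantile normalization hides changes in total RNA per cell and compresses dim signals. The number of arrays, not a depth, limits the precision.

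Of 36685 features 18511 had 1 symbol, 575 several and 17599 none, and 18394 were found by gene number in the RefSeq table of GRCr8. Where several features shared a symbol the brightest on average was used, giving 18166 genes. Groups came from the sample titles. Limma 3.58.1 in R 4.3.3 (lmFit, eBayes, two-sided, no block, 4 residual and 2.65 prior degrees of freedom) compared 3 induced with 3 control arrays, with Benjamini-Hochberg adjustment over all genes and calls at an adjusted p under 0.05. An exact permutation test of 3 against 3 cannot go below 0.1, so none was run. The fit was tested on simulated data with independent noise for each gene. No simulated array stood apart as a whole, as induced replicate 3 does.

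All 38 measured genes are named. Values per array are given for those separate by group with a difference of at least 1, for the extremes of each role, and for isoenzyme partners, Cs and Bckdk beside them. Of the neighbours, called genes and each list's 3 largest rises and 2 largest falls are named. The genes and lists were chosen with earlier results of these data known. Alternatives were a replicate block, each array or both replicate 3 arrays left out, array weights, a trend with a robust prior, centring on array medians, means over features, all features, and only the 9083 genes of highest mean signal. The respiratory and ribosomal lists, the splits by branch and the removal of Pc or of Idh2 and Bcat1 were chosen after seeing the data.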

Additional observations from a re-analysis of the deposited data

How the results depend on the processing

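All 36 positive and both negative estimates kept their sign in every alternative tried. The count of called genes among the 38 was 0 with all 6 arrays and ranged from 0 to 14 with 1 array left out (1 without control replicate 1, 14 without induced replicate 3). It was 13 with array weights, 13 without both replicate 3 arrays, 1 (Pc) with a trend and robust prior, and 2 (Pc and Auh) among the 9083 genes of highest signal; it was 0 in the other alternatives. The median estimate ran from 0.67 to 1.22 for the cycle and pyruvate entry and from 0.67 to 1.41 for BCAA breakdown with 1 array left out, and was 0.57 and 0.63 without both replicate 3 arrays. The difference between the groups' means ran from -0.16 to -0.08 with 1 array left out and was 0.023 without Pc, an alternative chosen after seeing the data. Over all genes, 136 calls became 2 to 557 with 1 array left out, 929 with array weights, 740 without both replicate 3 arrays, and 69 over all features. With replicate number as a block, 0 of the 38 and 12 genes in all were called. Same-numbered samples shared deviations weakly (r = 0.02, 0.12 and 0.15 across genes), and 2 of the 3 control arrays correlated better with another number, so the numbers were not taken as pairs. For control replicate 3, r was 0.15 with induced replicate 3 but -0.12 and -0.14 with induced replicates 1 and 2. Induced replicate 3 gave -0.04 and -0.14 with control replicates 1 and 2. What in replicate 3 sets the spread was not tested.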
